A study of Mus musculus with 7 samples.

Results

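Glutamate handling in an endpoint mouse glioma was followed through 8 genes, chosen by name from the 19257 genes of the normalized count table: the uptake transporters Slc1a1, Slc1a2 and Slc1a3, the cystine-glutamate exchanger subunits Slc7a11 and Slc3a2, and Glul, Slc38a1 and Bcat1 of glutamine and nitrogen metabolism. All 8 were present, and all 8 passed the filter on low values (a mean normalized count of at least 10). Tumor tissue was profiled by bulk RNA-Seq in 4 GPC6 tumors (replicates 1 to 4) and 3 control tumors, called 3xCR (replicates 2 to 4), 1 library per tumor. Both groups carried tumors started by in utero electroporation of mouse embryos with Cas9 and guides against tumor suppressor genes, and a transposon system marked tumor cells with GFP. The GPC6 tumors in addition overexpressed from it glypican 6, a cell-surface heparan sulfate proteoglycan. Tissue was cut from brain at endpoint under fluorescence and holds host cells beside tumor cells. The study used CD-1 and C57BL/6 mice of both sexes, and the strain, sex and age behind each library are not given in the sources used here. The control arm therefore shares the targeted genes with the GPC6 arm, and the comparison asks whether adding glypican 6 goes with a different level of these transcripts.

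Glutamate released by neurons is cleared mainly by astrocytes, which take it up through sodium-dependent transporters and turn it into glutamine with glutamine synthetase. Glutamine is passed back to neurons, which take it up and rebuild glutamate from it. Glioma cells are known for a different traffic, in which a cystine-glutamate exchanger brings in cystine for glutathione and sends glutamate out, and peritumoral glutamate has been linked to seizures.

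The libraries held 7197692 to 18879762 reads on genes, and between 383 and 35498 reads stood behind each of the 56 member values. Each value is a read count scaled by its library's size factor. Gpc6 was higher in every GPC6 library than in every 3xCR library, but the library labelled GPC6 replicate 2 (263 normalized counts) lay close to the highest 3xCR library (226), while the other GPC6 libraries held 675 to 5084. The sample label "neural" was checked against marker lists, and markers of astrocytes, neurons, oligodendrocytes and their precursors, microglia and endothelium were all present, which a mix of tumor and host cells also gives. In such bulk tissue, fewer cells of a type and less RNA per cell cannot be told apart. Nothing in the sources used here says that a replicate number stands for a litter or a day, and p-values measure the spread between these 7 libraries.

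No member passed the test between the groups. By limma, 0 of 8 passed an adjusted p of 0.05 (background 0.0% of the 14782 genes tested, in either direction) and 0 of 8 an unadjusted p of 0.05 (background 4.66%, made up of 2.74% higher and 1.92% lower in GPC6). In 0 of 8 did the groups separate without overlap (background 6.32%, made up of 2.8% higher and 3.52% lower in GPC6). The mean on the log2 scale was higher in GPC6 for 6 members and lower for 2. Of all genes tested, 48.3% were higher in GPC6. The median log2 fold change was 0.32 for the members and -0.019 over all genes tested. Of the other tests run on the recovered reads, edgeR, DESeq2 and voom also gave 0 of 8 at either threshold (over all genes, DESeq2 called 9 and edgeR 0). With 3 against 4 tumors the intervals are wide. The median standard error of the 8 fold changes was 0.57 on the log2 scale, larger than the median fold change itself.

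**Figure D1:**
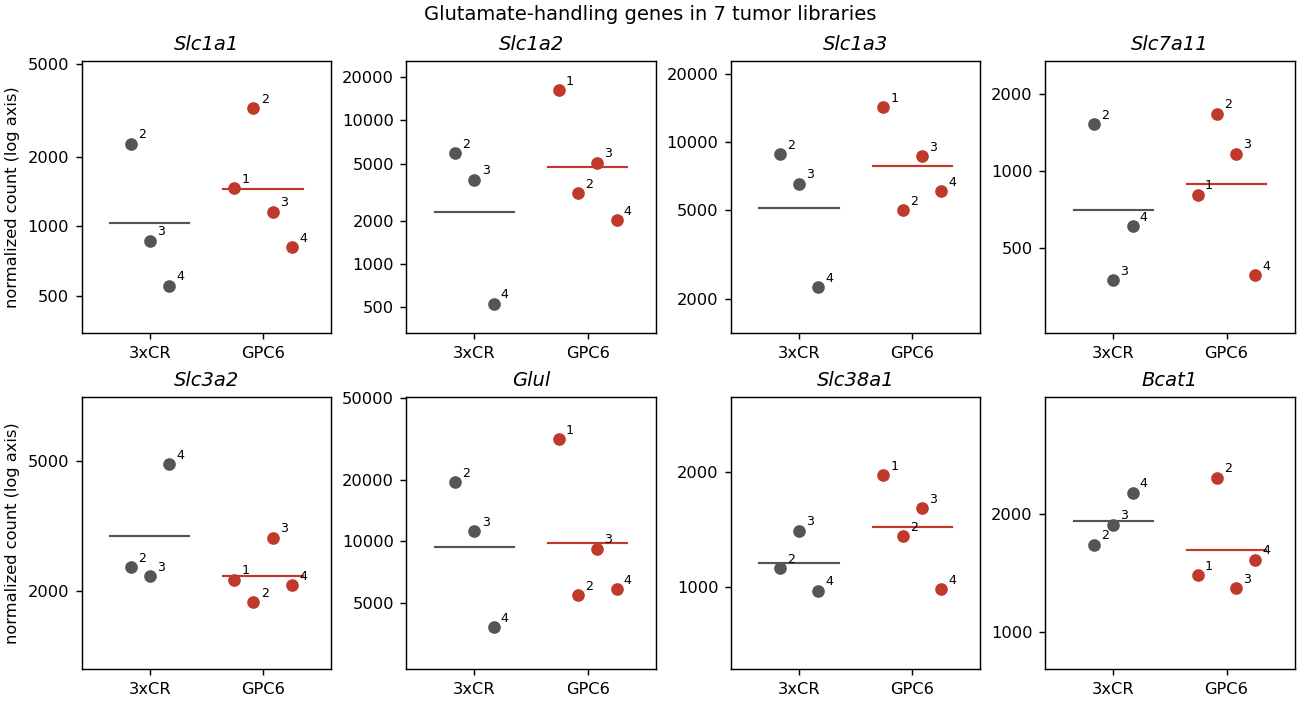
Normalized counts (log axis) of the 8 genes in each library, 3xCR against GPC6 tumors. Points are libraries marked by replicate number and the horizontal line is the geometric mean of the group. In every panel the points of both groups overlap, and 3xCR replicate 4 is the lowest of all 7 libraries in 5 panels.

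Slc1a2 encodes the transporter that carries most glutamate uptake in the adult forebrain and is a defining gene of mature astrocytes. It lies on chr2:102658659-102790784 of GRCm38, plus strand. Its normalized counts, in order of replicate number here and for the genes that follow, were 5894, 3860.3 and 530.4 in the 3xCR libraries (replicates 2 to 4) and 16158, 3099, 5054 and 2008 in the GPC6 libraries (replicates 1 to 4). The highest library was GPC6 replicate 1 and the lowest 3xCR replicate 4, 30.5-fold apart, and the other 5 lay between 2008 and 5894 with both groups mixed. The means were 3428 ± 2708 (SD, n = 3) and 6580 ± 6509 (SD, n = 4). The log2 fold change of GPC6 against 3xCR was 1.05 with a standard error of 0.96 and a 95% interval from -1.16 to 3.26 (limma, adjusted p = 0.763). Across the 7 libraries, the SD of its log2 level was larger than that of 92.7% of the genes tested. Without 3xCR replicate 4 the fold change was -0.0065.

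Slc1a3 encodes the transporter of radial glia, cerebellar glia and many astrocytes, and is also expressed by neural progenitors. It lies on chr15:8634124-8710764, minus strand. The 3xCR libraries held 8833, 6526 and 2262 normalized counts and the GPC6 libraries 14322, 4974, 8668 and 6025. The same libraries stood at the ends as for Slc1a2, but over a narrower range of 6.33-fold. Means of 5874 ± 3333 (SD, n = 3) in 3xCR and 8497 ± 4182 (SD, n = 4) in GPC6 stood beside a fitted log2 fold change of 0.62 with a standard error of 0.54 (95% interval -0.64 to 1.88, limma adjusted p = 0.756). Leaving out 3xCR replicate 4 brought it to 0.041.

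Slc1a1 encodes the transporter of neurons, which also carries cysteine into cells. It lies on chr19:28835049-28913960, plus strand, and shares exon sequence with an antisense gene, 4430402I18Rik, whose mean was 35.7 normalized counts. Its normalized counts were 2273, 869 and 555 in the 3xCR libraries, and 1459, 3229.7, 1157 and 813 in the GPC6 libraries. Here GPC6 replicate 2 was the highest and 3xCR replicate 2 the next, and the groups overlapped over most of their range. Means of 1232 ± 914 (SD, n = 3) in 3xCR and 1665 ± 1076 (SD, n = 4) in GPC6 stood beside a fitted log2 fold change of 0.49 with a standard error of 0.59 (95% interval -0.87 to 1.85, limma adjusted p = 0.816). Without 3xCR replicate 4 it was 0.046 and without GPC6 replicate 2 it was 0.11.

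Slc7a11 encodes the light chain of the cystine-glutamate exchanger, the part that transports, and is known to be induced under amino acid shortage by ATF4 and under oxidative stress by NRF2. It lies on chr3:49892526-50443614, minus strand. In the 3xCR libraries Slc7a11 stood at 1523, 376 and 609 normalized counts, and in the GPC6 libraries at 808, 1674, 1168 and 394. Both groups held a library near the lowest value and one near the highest, 4.45-fold apart over all 7. Means of 836 ± 606 (SD, n = 3) in 3xCR and 1011 ± 543 (SD, n = 4) in GPC6 stood beside a fitted log2 fold change of 0.34 with a standard error of 0.60 (95% interval -1.05 to 1.72, limma adjusted p = 0.876), and it became -0.12 without 3xCR replicate 3.

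The promoter is shown because the ATF4 response element, here the letters TTGCATCA on either strand, was present in 1 of the 8 windows found for 7 members (none was given for Slc38a1), that of Slc7a11. The windows were taken from RefSeq (GRCm38.p6), from 250 bases before to 50 after each gene's start, and 0.895% of all 32851 windows held the letters. In the Slc7a11 window the element occurred once in each orientation, at chr3:50443653-50443660 (40 to 47 bases before the start) and chr3:50443672-50443679 (59 to 66 bases before it), with 11 bases between them. This was the only window of the 32851 with both orientations. An antioxidant response element, the letters TGACNNNGC on either strand, was in 0 member windows and in 12.4% of all windows. For comparison, the promoter of Chac1, a glutathione-degrading enzyme known as a target of ATF4, had 1 match at chr2:119351049-119351056. Of the 54 further pathway genes with a window, 6 held the element (Atf3, Chac1, Got1, Nupr1, Slc1a4 and Slc7a7). These genes include a list of the ATF4 and NRF2 programme, and some have several windows. Their count is therefore no test against the 0.895% of windows. A match describes letters only. Both sequences run 5′ to 3′ on the strand of the gene and end 20 bases before the start (Slc7a11, chr3:50443634-50443863, minus strand; Chac1, chr2:119350992-119351221, plus strand), and capitals mark the element.
Slc7a11: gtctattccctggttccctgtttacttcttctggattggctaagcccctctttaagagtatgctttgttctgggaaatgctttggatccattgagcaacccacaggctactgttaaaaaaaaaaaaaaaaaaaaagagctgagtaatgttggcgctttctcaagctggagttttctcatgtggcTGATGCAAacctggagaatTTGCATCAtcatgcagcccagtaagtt
Chac1: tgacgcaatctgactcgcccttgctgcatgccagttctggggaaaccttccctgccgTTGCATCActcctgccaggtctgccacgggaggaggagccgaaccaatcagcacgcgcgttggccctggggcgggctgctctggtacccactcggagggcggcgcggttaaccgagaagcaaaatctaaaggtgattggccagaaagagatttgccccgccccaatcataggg

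Slc3a2 encodes the heavy chain that holds this and several other light chains in the membrane. It lies on chr19:8706882-8723369, minus strand. The 3 controls held 2362, 2222 and 4894 normalized counts of Slc3a2, and the GPC6 libraries 2167, 1848.5, 2908 and 2087. Replicates 1, 2 and 4 of GPC6 lay below all 3xCR libraries and replicate 3 above 2 of them. Means of 3159 ± 1504 (SD, n = 3) in 3xCR and 2253 ± 457 (SD, n = 4) in GPC6 stood beside a fitted log2 fold change of -0.41 with a standard error of 0.32 (95% interval -1.16 to 0.34, limma adjusted p = 0.742), and -0.045 without 3xCR replicate 4, in which Slc3a2 was highest. Across the libraries the log2 levels of Slc7a11 and Slc3a2 showed no correlation past the test (Pearson r = -0.14, exact permutation p = 0.818, adjusted over 28 pairs 0.838). Spearman's rho was -0.14 (exact permutation p = 0.783), and r was -0.055 without the 2 libraries farthest from the median of Slc7a11.

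Glul encodes glutamine synthetase, which makes glutamine from glutamate and ammonia and is a marker of astrocytes. It lies on chr1:153899944-153909723, plus strand, and shares exon sequence with the antisense gene Teddm2, which had a mean of 2.42 normalized counts. Its normalized counts were 19457, 11195 and 3812 in the 3xCR libraries and 31578, 5439.8, 9199.8 and 5838 in the GPC6 libraries. The highest GPC6 library exceeded all others while the other 3 lay below the 2 higher 3xCR libraries. Means of 11488 ± 7827 (SD, n = 3) in 3xCR and 13014 ± 12490.3 (SD, n = 4) in GPC6 stood beside a fitted log2 fold change of 0.06 with a standard error of 0.75 (95% interval -1.68 to 1.80, limma adjusted p = 0.986), and its sign turned to -0.50 without GPC6 replicate 1 and to -0.59 without 3xCR replicate 4.

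Slc38a1 encodes a glutamine transporter that supplies neurons. It lies on chr15:96571418-96642913, minus strand. The controls held 1123, 1405 and 979 normalized counts of Slc38a1, and the GPC6 libraries 1958, 1360.4, 1606 and 989. They spanned 2.00-fold over all libraries, with GPC6 replicates 1 and 3 above the 3xCR range. Means of 1169 ± 216 (SD, n = 3) in 3xCR and 1478 ± 408 (SD, n = 4) in GPC6 stood beside a fitted log2 fold change of 0.31 with a standard error of 0.27 (95% interval -0.32 to 0.94, limma adjusted p = 0.758).

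Bcat1 encodes the cytosolic branched-chain aminotransferase, which makes glutamate by moving nitrogen from leucine, isoleucine and valine to alpha-ketoglutarate and is known in gliomas. It lies on chr6:144993835-145076184, minus strand. Its normalized counts were 1668, 1878 and 2258 in the 3xCR libraries and 1399, 2468, 1293 and 1529 in the GPC6 libraries. Replicates 1, 3 and 4 of GPC6 lay below all 3xCR libraries, and replicate 2 above them. Means of 1935 ± 299 (SD, n = 3) in 3xCR and 1672 ± 539 (SD, n = 4) in GPC6 stood beside a fitted log2 fold change of -0.25 with a standard error of 0.27 (95% interval -0.87 to 0.38, limma adjusted p = 0.801). Bcat1 was the steadiest of the 8, with an SD of its log2 level above that of 28.4% of the genes tested.

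**Figure D2:**
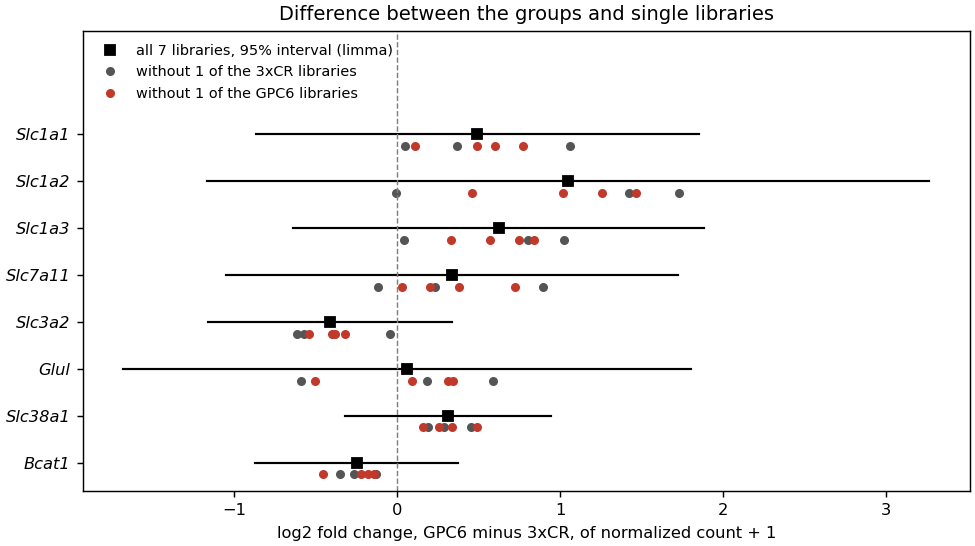
Log2 fold change of GPC6 against 3xCR for each of the 8 genes (squares) with the 95% interval of the limma fit (bars). Circles below each bar are the fold changes without each library in turn, grey for a 3xCR and red for a GPC6 library left out. All 8 intervals cross 0, from the narrow ones of Bcat1 and Slc38a1 to that of Slc1a2, which runs from -1.16 to 3.26.

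Divided by exon length, the order of the mean levels was Glul (3719 normalized counts per kb of exon), Slc1a3 (864), Slc3a2 (748), Slc1a2 (398), Bcat1 (191), Slc1a1 (179), Slc38a1 (78.1) and Slc7a11 (67.2). Glul exceeded Slc1a3 and Slc1a1 exceeded Slc38a1 in 7 of 7 libraries, each with an exact sign-flip permutation p of 0.0156, the smallest 7 libraries allow, and an adjusted p of 0.0547 over the 7 neighbouring pairs. Each of the other neighbouring pairs changed order in at least 1 library, with adjusted p-values of 0.109 (Slc3a2 and Slc1a2) to 0.828 (Slc1a3 and Slc3a2) by the same exact test. Since 0.0156 is the floor of the test, the adjusted 0.0547 is set by the number of libraries, and the gaps themselves were 1.93 ± 0.51 (SD) on the log2 scale for Glul over Slc1a3 and 1.00 ± 0.84 for Slc1a1 over Slc38a1. Per length, the exchanger's heavy chain stood above its transporting subunit in every library.

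Of the summed level per kb of the 3 uptake transporters, Slc1a3 took 48.2% to 73.7% in every library and was always the largest part. This depends on the division by length: in GPC6 replicate 1, Slc1a2 (16158 normalized counts) exceeded Slc1a3 (14322) without it. Slc1a2 took 10.8% to 39.9%, its lowest share in 3xCR replicate 4 and its highest in GPC6 replicate 1. Slc1a1 took 5.73% to 32.3%, the highest in GPC6 replicate 2. On the same scale, Slc7a5, the light chain that forms the large neutral amino acid transporter with Slc3a2, took 48.0% to 82.4% of the 6 light chains measured, and Slc7a11 2.64% to 14.0%. Both shares overlapped between the groups.

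**Figure D3:**
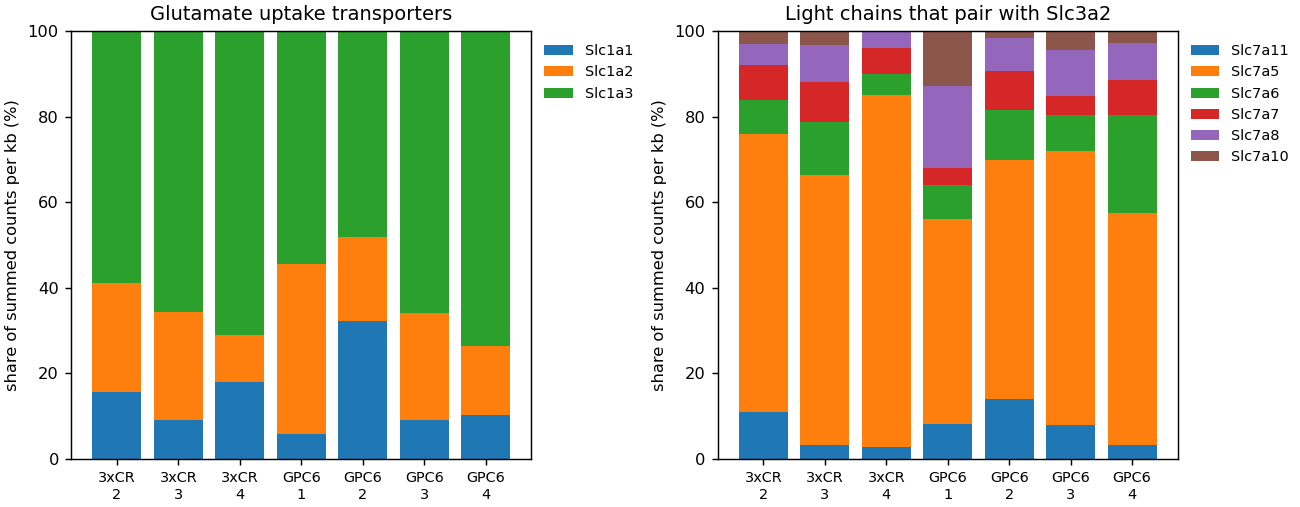
Share (percent) of each gene in the summed level per kb of exon, by library, for the 3 uptake transporters and for the 6 light chains of Slc3a2. Slc1a3 and Slc7a5 are the largest part of their sums in all 7 libraries.

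Ratios between members within a library do not depend on the size factor. The log2 ratio of Slc1a2 to Slc1a3 was higher in GPC6 by 0.43, of Slc7a11 to Slc3a2 by 0.75, of Bcat1 to its mitochondrial counterpart Bcat2 by 0.54, and of Slc38a1 to the astrocytic glutamine exporter Slc38a3 by 0.57. The groups overlapped in all 4. Two-sided exact permutation tests gave p = 0.571, 0.457, 0.343 and 0.457 (adjusted p = 0.571 for each over 4 ratios), and since 3 against 4 libraries allow no p below 0.0571, this test could not have passed 0.05. Single libraries moved each difference by over 1.5 times: without 3xCR replicate 4 they were -0.047, 0.28, 0.16 and 1.03 in the same order, and without 3xCR replicate 2 they were 0.71, 1.46, 0.76 and 0.06. Without GPC6 replicate 1 the first was 0.13, without GPC6 replicate 2 the second was 0.35 and the third 0.32, and without GPC6 replicate 4 the first was 0.71 and the last 0.32.

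Slc1a2, Slc1a3 and Glul, the genes of astrocytic uptake and glutamine synthesis, moved together from tumor to tumor. Slc1a2 and Slc1a3 correlated across the 7 libraries with Pearson r = 0.97 (exact permutation p = 0.00119, adjusted over 28 pairs 0.0333) and Spearman rho = 0.96 (exact p = 0.00278, adjusted 0.0389). Slc1a2 and Glul had r = 0.90 (exact permutation p = 0.00337, adjusted 0.0472) and rho = 0.93 (exact p = 0.00675, adjusted 0.063), and Slc1a3 and Glul r = 0.89 (exact permutation p = 0.00536, adjusted 0.05) and rho = 0.96 (exact p = 0.00278, adjusted 0.0389). Without the 2 libraries farthest from the median (3xCR replicate 4 and GPC6 replicate 1), the 3 values of r were 0.78, 0.82 and 0.80. Genes of a library share its size factor and its mix of tissue, so the values describe tumors and not cells.

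The same 3 genes followed the astrocyte markers. Against a score from 11 astrocyte markers, Slc1a2 had r = 0.94 (exact permutation p = 0.000198, adjusted over 24 relations 0.00476) and rho = 1 (exact p = 0.000397, adjusted 0.00952). Slc1a3 had r = 0.92 (exact permutation p = 0.000992, adjusted 0.0119) and rho = 0.96 (exact p = 0.00278, adjusted 0.0333), and Glul r = 0.93 (exact permutation p = 0.00238, adjusted 0.019) and rho = 0.93 (exact p = 0.00675, adjusted 0.0405). The score was lowest in 3xCR replicate 4 and highest in GPC6 replicate 1, as were Slc1a2, Slc1a3 and Glul. Leaving out 3xCR replicate 4 and GPC6 replicate 4, the farthest from the median score, gave r = 0.83, 0.92 and 0.93. For the marker list as a whole, 8 of 11 genes were higher in GPC6 and 3 lower with a median log2 fold change of 0.27 (from -0.63 for Aqp4 to 0.84 for Slc39a12, and -0.35 for Gfap, the most abundant) and 0 at an unadjusted p of 0.05 by limma, and its summed level was 15517 to 58665 in 3xCR and 25737 to 48794 in GPC6. GPC6 replicate 1, the upper end of these relations, also stood apart in other lists, with a summed proliferation marker level of 677 normalized counts against 5280.0 to 14440 in the other 6 libraries, and the highest choroid plexus sum (12634). The 3 members also rose with the score from 12 neuron markers given below, though none passed after adjustment. For Slc1a2, Slc1a3 and Glul, r with it was 0.80, 0.87 and 0.72 (exact permutation, adjusted p = 0.0944, 0.0505 and 0.171). Whether the part of astrocytes in the tissue sets the level of these 3 members was not tested.

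**Figure D4:**
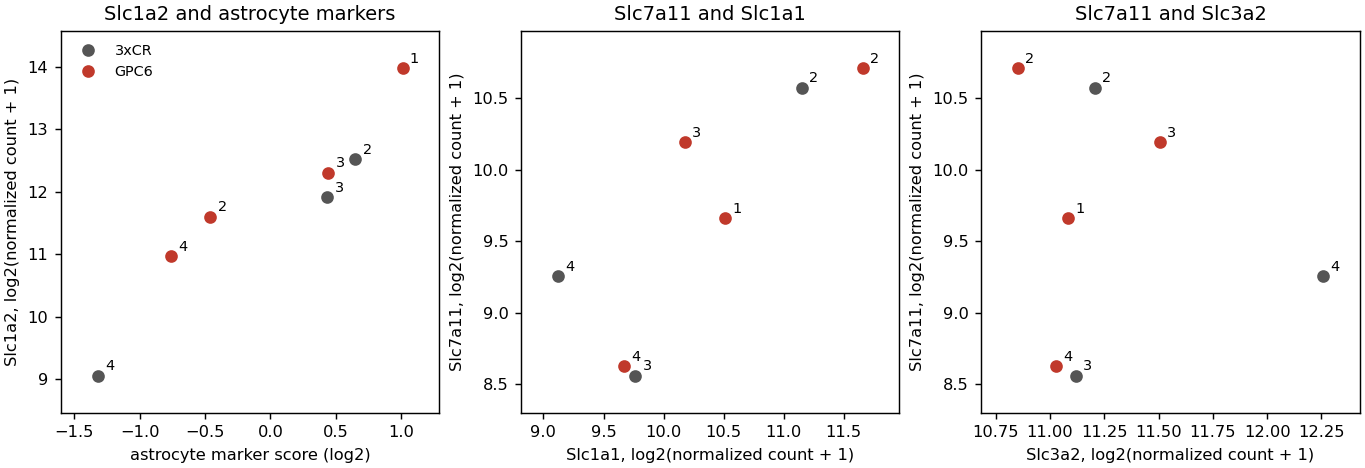
Log2 levels of Slc1a2 against the astrocyte marker score, and of Slc7a11 against Slc1a1 and against Slc3a2, 1 point per library, colored by group and marked by replicate number. Slc1a2 keeps the order of the astrocyte score in all 7 libraries (rho = 1), whereas in the plot against Slc3a2 the library with the highest Slc3a2, 3xCR replicate 4, is the third lowest for Slc7a11.

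Bcat1 was low where neuron markers were high, which passed the adjusted threshold for rho and not for r. With a score from 12 neuron markers it had r = -0.88 (exact permutation p = 0.0105, adjusted 0.0505) and rho = -0.93 (exact p = 0.00675, adjusted 0.0405), and r = -0.89 without GPC6 replicates 1 and 3. The neuron markers were higher in GPC6 in 12 of 12 (48.3% of all genes tested were higher). Their median log2 fold change was 1.66 (from 0.16 for Stmn2 to 3.02 for Snap25, the most abundant). By limma, 3 had an unadjusted p under 0.05 (background 2.74% higher in GPC6), and 1 was without overlap (background 2.8% higher). The summed level of the neuron markers was 6017 to 10989 in 3xCR and 7320 to 70910 in GPC6, highest in GPC6 replicates 1 and 3. For Slc1a3 and the neuron score r was 0.87 (exact permutation p = 0.0101, adjusted 0.0505), rho 0.82 (exact p = 0.0341, adjusted 0.164), and r 0.85 without the same libraries, so neither passed. Whether host neurons in the tissue bear on Bcat1 was not tested. None of the 8 members passed against the proliferation score. Slc1a1 and Slc7a11 did not pass after adjustment (r = 0.82, exact permutation p = 0.026, adjusted 0.146, rho = 0.82, exact p = 0.0341, adjusted 0.239, r = 0.88 without 3xCR replicate 4 and GPC6 replicate 2), with the highest values of both in replicate 2 of each group, the 2 libraries with the highest oligodendrocyte precursor scores (1.35 in GPC6 and 0.71 in 3xCR).

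**Figure D5:**
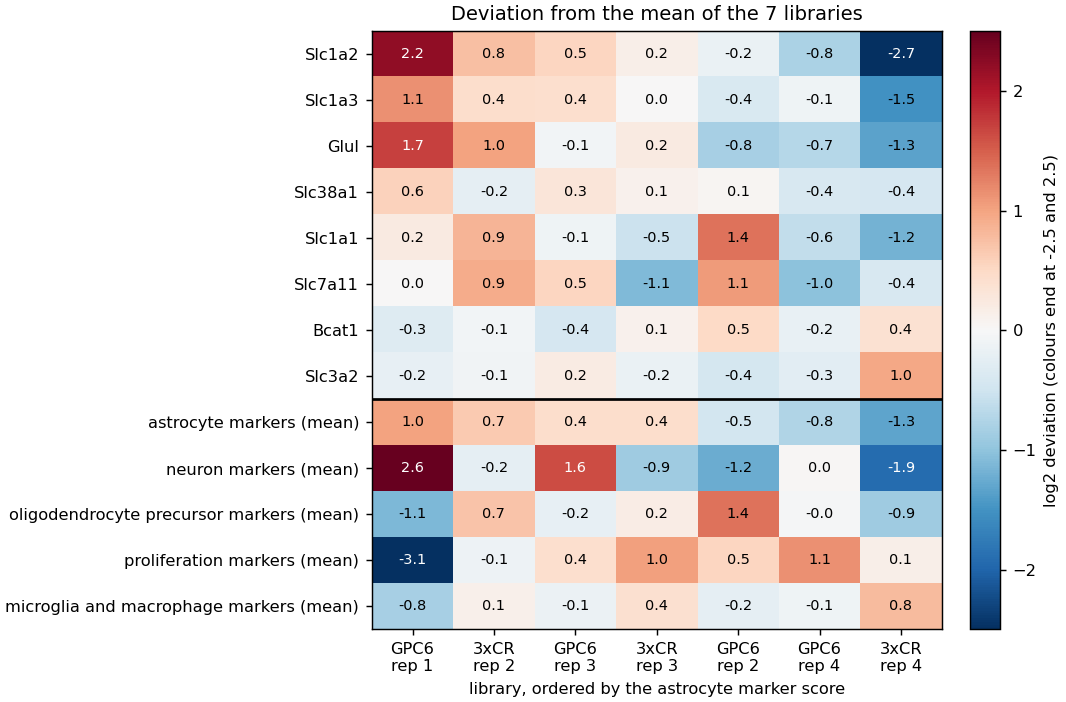
Deviation (log2) of each member and of 5 marker list means from the average over the 7 libraries, with libraries in columns ordered by the astrocyte marker score and colors ending at -2.5 and 2.5. Slc1a2, Slc1a3 and Glul are lowest in 3xCR replicate 4 and highest in GPC6 replicate 1, while Slc3a2 is highest in 3xCR replicate 4.

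The genes most like each member across the 7 libraries, by Pearson r over 14782 genes, were Scg3 (0.998), Slc25a23 and Baalc for Slc1a2, and Rtn2 (0.996), A830011K09Rik and Ank2 for Slc1a3. For Glul they were Hsdl1 (0.971), Lhx2 and Slc4a4. For Slc1a1 they were Zfp827 (0.997), Reep1 and Mrgpre, and for Slc7a11 Pex3 (0.992), Foxc1 and Slc22a15. They were Fkbp2 (0.990), Fam207a and Blnk for Slc3a2, Ndn (0.979), Papln and Zdhhc23 for Slc38a1, and Frmd4b (0.980), Cttn and Rspry1 for Bcat1. These were picked as the highest of all genes tested, so the values are a description and no test.

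The rest of the pathway was read from 8 lists. Of 65 genes listed 62 were tested, and 7 (11.3%, background 4.66%) had an unadjusted p under 0.05 by limma. Of these, 3 were higher (background 2.74%) and 4 lower (background 1.92%) in GPC6, and 0 passed the adjusted threshold. The lists were written with earlier results of these data known, so a share above background is a description and no test of the pathway. Of the vesicular transporters, Slc17a7, which fills synaptic vesicles with glutamate, had 1107, 524 and 22.1 normalized counts in the 3xCR libraries and 9631, 61.3, 10980 and 1715 in the GPC6 libraries (log2 fold change 2.95, limma unadjusted p = 0.180). Slc17a6, another vesicular glutamate transporter, gave a log2 fold change of 2.17 (limma unadjusted p = 0.149), and Slc17a8 was not tested. The GPC6 libraries with high Slc17a7, replicates 1 and 3, were those with the highest neuron score.

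Among the enzymes, 9 were higher and 8 lower, with a median log2 fold change of 0.018. Gad2 and Gad1, which make GABA from glutamate, gave log2 fold changes of 2.83 and 2.59 (limma unadjusted p = 0.0159 and 0.0183), and Gad2 did not overlap between groups. Got2, the mitochondrial aspartate aminotransferase, did not overlap either (1700 to 2083 normalized counts in 3xCR, 2255 to 3566 in GPC6). Over all genes tested, 2.8% were higher in GPC6 without overlap. Psat1, of serine synthesis, was the most abundant, and Bcat2 had the most negative log2 fold change (-0.79, limma unadjusted p = 0.107). Of the other SLC1 genes, which carry neutral amino acids or are neuronal glutamate transporters, 3 were tested with a median log2 fold change of -0.037, from -0.30 for Slc1a5 to 0.88 for Slc1a6, and Slc1a4 was the most abundant. Of the 5 other light chains, 3 were higher and 2 lower with a median of 0.19, from -0.73 for Slc7a7 to 1.23 for Slc7a10. Slc7a7 was the only one without overlap between groups (background 3.52% lower in GPC6). Among glutamine transporters, 1 was higher and 4 were lower with a median of -0.26. Slc38a2, the most abundant, had the most negative log2 fold change (-0.35). Slc6a15, a neutral amino acid transporter of neurons, alone passed the unadjusted threshold (background 2.74% higher in GPC6). Its log2 fold change was 1.34 (limma unadjusted p = 0.0191, adjusted p = 0.73), with 169 to 609 normalized counts in 3xCR and 493 to 824 in GPC6.

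In the ATF4 and NRF2 list, 13 of 14 genes were lower in GPC6 and 1 was higher, with a median log2 fold change of -0.70. Over all genes tested, 48.3% were higher in GPC6. In the list 3 had an unadjusted p under 0.05 by limma, all lower in GPC6 (background 1.92% lower). Atf4, Trib3 and Nupr1 were these 3. Atf4, the transcription factor of the amino acid response, had 2188, 2216 and 5526 normalized counts in 3xCR and 1272, 1767, 2177 and 1120.4 in GPC6 (log2 fold change -0.97, limma unadjusted p = 0.041, adjusted p = 0.73). Nupr1, a stress-induced chromatin protein, had 930, 585 and 992 in 3xCR and 116, 66.2, 200.5 and 229 in GPC6 (log2 fold change -2.56, limma unadjusted p = 0.00053, adjusted p = 0.73). Phgdh, of serine synthesis, had the highest mean of the list (log2 fold change -0.21), and Ddit4, a stress-induced inhibitor of growth signaling, was the 1 higher gene (0.12). In 3xCR replicate 4, Atf4 and 7 others of the 14 had their highest value, among them Trib3 (1018 normalized counts), and the other 6, with Phgdh and Ddit4, had it elsewhere. Slc3a2 (4894) was highest there too, and Slc7a11 had 609 against a mean of 936. Of the 6 pathway genes with the element printed above, 4 were highest in that library and 2, Got1 and Slc1a4, were not. Atf3 and Nupr1 stand in both counts. The share of all genes tested with their highest value in that library was not computed, so these counts have no background. Atf4, Trib3, Gad1, Got2 and Chac2 were chosen for the text after their values were seen. Of the microglia and macrophage markers, 9 of 9 were lower in GPC6, with a median log2 fold change of -0.86 (from -1.31 for Aif1 to -0.18 for Csf1r). By limma, 4 had an unadjusted p under 0.05 (background 1.92% lower in GPC6), and 4 were without overlap between groups (background 3.52% lower). C1qa, the most abundant, had a log2 fold change of -1.07. The summed levels were 31281 to 59482 in 3xCR and 16066 to 29135 in GPC6. Their part in the lower ATF4 list was not tested.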

How the data were processed

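The authors sequenced poly(A)-selected RNA of tumor tissue, checked reads with FastQC and MultiQC, aligned them with STAR 2.5.0a to mm10 (GRCm38), built count matrices with Rsamtools and GenomicFeatures, and normalized with DESeq2 1.20.0, per the study's methods and the submitters' processing notes. The deposited values are a normalized signal: read counts scaled by the size factor of their library, linear and with no length correction. The library kit keeps strand, but the strand setting of the counting and its treatment of ambiguous reads are not given in the sources used here. The labels and the methods differ in RNA input and extraction kit, and neither entered a calculation. Of 19282 entries, 25 carried date-like names and were left out (0.254% to 0.361% of reads), leaving 19257 genes, 95.84% matched to GENCODE annotation.

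Whole reads were recovered by dividing by the value of 1 read (100% within 0.01). The main test was limma 3.58.1 (R 4.3.3, variance trend) on log2 values after adding 1 to each normalized count. It covered 14782 genes (mean of 10 or more), two-sided, with Benjamini-Hochberg adjustment over all of them. Fold changes are on that log2 scale, which understates changes of low genes. The fit was repeated with a pseudocount of 0.5 or 5, with a minimum mean of 50 or none, with 3 other scalings, without or with a robust variance trend, with weights per library, with edgeR 4.0.16, DESeq2 1.42.0 and voom on the reads, with a replicate block, and without each library in turn. The fit was first tested on simulated data with planted changes larger than those of the members. That checks the fit and not its power in these libraries. Single ratios and correlations used exact permutations. Libraries differed from each other by more than sampling noise, so none was counted as a copy. The gene names given are all 8 members, from each list the gene of highest mean and of largest and smallest fold change, and for each member the 3 genes of highest correlation, with the exceptions the text states. Members, lists and tests were chosen with earlier results of these data known. Marker scores are the mean deviation of log2 levels over the list. Levels per length used the summed length of all exons of a gene in GENCODE, not of the transcripts expressed. Orders and shares per length depend on that choice.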

Additional observations from a re-analysis of the deposited data

How the results depend on the processing

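No member passed an adjusted p of 0.05 under any of 22 alternatives. Before adjustment, Bcat1 and Slc7a11 passed with library weights, a fit in which 5105 of all 14782 genes tested did so. Slc1a1 passed with a replicate block (limma adjusted p = 0.809, log2 fold change 0.49), a fit in which 678 of the 14782 did so. Signs turned for Slc1a1 (-0.089 without GPC6 replicates 1 and 2, an alternative chosen after seeing the data), Slc1a2 (-0.0065 without 3xCR replicate 4), Slc7a11 (-0.12 without 3xCR replicate 3, -0.053 without GPC6 replicates 1 and 2), Slc3a2 (0.21 with library weights) and the ratio of Slc1a2 to Slc1a3 (-0.047 without 3xCR replicate 4). Glul turned most often, to -0.29 with library weights, -0.50 with the replicate block, -0.59 without 3xCR replicate 4, -0.50 without GPC6 replicate 1 and -0.36 without GPC6 replicates 1 and 2. Slc1a3, Slc38a1 and Bcat1 kept their direction throughout. Leaving out each library in turn, the log2 fold changes ranged from 0.046 to 1.06 for Slc1a1, -0.0065 to 1.73 for Slc1a2, 0.041 to 1.02 for Slc1a3, -0.12 to 0.89 for Slc7a11, -0.61 to -0.045 for Slc3a2, -0.59 to 0.59 for Glul, 0.16 to 0.49 for Slc38a1 and -0.45 to -0.13 for Bcat1, and the ratio differences from -0.047 to 0.71 (Slc1a2 to Slc1a3), 0.28 to 1.46 (Slc7a11 to Slc3a2), 0.16 to 0.76 (Bcat1 to Bcat2) and 0.06 to 1.03 (Slc38a1 to Slc38a3). Over all genes, 0 passed the adjusted threshold with limma, 1962 with library weights and 9 with DESeq2, and 689 passed an unadjusted 0.05, against 5105 with weights, 1793 with DESeq2, 991 with edgeR and 902 without GPC6 replicates 1 and 2 (121 to 1399 with one library left out). The cause was not tested. The weights ran from 0.301 (GPC6 replicate 1) to 8.71 (3xCR replicate 3). GPC6 replicate 3 had 4.47, and every other library at most 0.849. The weighted fit therefore rests mainly on replicate 3 of each group. Same-numbered libraries of the 2 groups correlated at -0.19, 0.12 and 0.30 in their deviations (replicates 2, 3 and 4). The closest GPC6 library had the same number for 3xCR replicate 4 and another for replicates 2 and 3. So few libraries cannot decide whether the numbers pair them. The replicate block left GPC6 replicate 1 without a partner and gave 678 unadjusted and 0 adjusted calls. Depth did not limit the members, as their lowest value rested on 383 reads, and a gene at 0 reads in a library allows an expected count of up to 3.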

Other observations

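Glutathione synthesis and non-vesicular release were also read as lists. Of 8 glutathione genes, 3 were higher in GPC6 and 5 lower, with a median log2 fold change of -0.086. Of the 8, 2 were lower without overlap, Gsr and Chac2 (background 3.52% lower in GPC6). Gsr, the reductase that regenerates glutathione, had 994 to 1077 normalized counts in 3xCR and 643 to 753 in GPC6. Its log2 fold change was -0.53 (limma unadjusted p = 0.0156, adjusted p = 0.73). Gsr alone had an unadjusted p under 0.05 (background 1.92% lower in GPC6). Chac2 had 75.6 to 106 normalized counts in 3xCR and 55.9 to 75.1 in GPC6. Ggt7 had the largest log2 fold change (0.73) and Chac1 the smallest (-1.39). Of 9 genes for volume-regulated channels, hemichannels and transporter regulation, 8 were tested, 4 higher and 4 lower with a median of -0.011, and 0 had an unadjusted p under 0.05 by limma. Arl6ip5, which binds a glutamate transporter, was the most abundant, and Panx1, a hemichannel, had the most negative log2 fold change (-0.44). Gjb6, a gap junction gene of astrocytes, ranged from 18.0 to 1354 normalized counts over the 7 libraries, lowest in 3xCR replicate 4 and highest in GPC6 replicate 1, the ends also taken by Slc1a2. Further marker lists split among the GPC6 libraries. Proliferation markers had a negative log2 fold change in 10 of 10 (median -0.54, from -1.10 for Birc5 to -0.28 for Ccna2, 0 at an unadjusted p of 0.05 by limma), but their summed level was low in GPC6 replicate 1 only (677 normalized counts), with 8006 to 14440 in the other GPC6 libraries against 5280.0 to 12299 in 3xCR, and the mean of Top2a, the most abundant, was higher in GPC6 (2507 against 2152). Oligodendrocyte markers had a negative log2 fold change in 8 of 8 (median -0.67, from -1.15 for Mbp, the most abundant, to -0.14 for Mal, 0 at an unadjusted p of 0.05 by limma). Their sums in GPC6 replicates 1 and 2 (102197 and 106865) were above the 3xCR range of 64093 to 80453, and those in replicates 3 and 4 (23339 and 12729.6) below it. Choroid plexus markers had a negative log2 fold change in 7 of 7 (median -1.45, from -3.20 for Ttr, the most abundant, to -0.68 for Clic6, 0 at an unadjusted p of 0.05), while GPC6 replicate 1 held the highest sum of all libraries and the other GPC6 libraries 39.1 to 113. Of the oligodendrocyte precursor markers 3 were higher and 4 lower (median -0.026, from -0.17 for Olig1, the most abundant, to 0.24 for Pdgfra, 0 at an unadjusted p of 0.05). Of the endothelial markers 6 of 7 were higher (median 0.38, from -0.11 for Cldn5, the most abundant, to 0.92 for Flt1). Flt1 alone had an unadjusted p under 0.05 by limma (background 2.74% higher in GPC6).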
